A study of Arabidopsis thaliana with 22 samples.

Results

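The comparison described here is that of leaves of the Arabidopsis thaliana mutant pglp1 with leaves of 3 other photorespiration mutants, all grown and sampled in air with 1% CO2 (HC). It rests on 8 of the 22 RNA-seq libraries of the series, 2 of pglp1 and 6 of the other mutants, chosen by their sample names. The plants of all 4 lines carry a T-DNA insertion: pglp1-1 in the gene of the plastid phosphoglycolate phosphatase, hpr1-1 in that of the peroxisomal hydroxypyruvate reductase, shm1-2 in that of the mitochondrial serine hydroxymethyltransferase and glyk1-1 in that of the glycerate kinase. Each gene is represented by 1 insertion line, with 2 biological replicates per mutant at HC. The 3 wild-type (WT) libraries at HC were fitted together with them and serve as a further level to set beside pglp1. Mature leaves were taken 8 h after the light came on. A second set of 8 libraries of the same mutants, 2 each, came from plants that were put in 0.038% CO2 (LC) when the night ended and were sampled at the same hour.

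Photorespiration begins when Rubisco fixes oxygen in place of CO2 and makes phosphoglycolate. The phosphatase PGLP1 removes its phosphate in the chloroplast, as the entry step of a cycle that then runs through peroxisomes and mitochondria and returns glycerate to the chloroplast. HPR1 and glycerate kinase act at the end of that cycle, and the mitochondrial SHM1 acts in its middle, where glycine is turned into serine and ammonia is released. High CO2 lowers the rate of oxygen fixation, so that mutants of the cycle that cannot live in normal air are grown there. Phosphoglycolate is known as an inhibitor of chloroplast and glycolytic enzymes, and the other mutants lack a step after it.

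Counts per library at HC summed to 9.14 and 17.9 M (1e6 counts) in pglp1, against 32.5 and 27.3 M in hpr1, 33.7 and 28.0 M in shm1, 91.2 and 78.6 M in glyk1 and 82.0, 66.5 and 18.1 M in WT. The first pglp1 library is thus the shallowest of the 11 at HC. Levels below are CPM, counts per 1e6 counts after TMM scaling, for single genes of unequal length, so they compare libraries and not genes. A gene is called higher or lower where edgeR's quasi-likelihood test of pglp1 against the mean of hpr1, shm1 and glyk1 gave an adjusted p under 0.05 over all 19279 tested genes. SE is a standard error worked back from that test, as the absolute log2 fold change divided by the square root of the F value. For genes near 0 in a group it is a poor measure of how uncertain the fold change is. In whole leaves, fewer cells of a type and less RNA per cell cannot be told apart.

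Far more genes set pglp1 apart from the other mutants at HC than set any other mutant apart from its fellows. In all, 2259 genes were higher in pglp1 (11.7% of those tested) and 1732 were lower (8.98%), of which 853 and 661 differed by at least 2-fold. Of the genes called higher, 1972 were above all 6 other mutant libraries in both pglp1 libraries, and 1667 of those called lower were below all 6. Over all tested genes, called or not, 3702 were above all 6 in this way (19.2%) and 4211 were below (21.8%). The same contrast for each of the other mutants, which shares libraries with the first, against its 3 fellow mutants called 217 genes for hpr1 (1.13%), 52 for shm1 (0.27%) and 2 for glyk1 (0.0104%). Against WT, 2813 genes were called for pglp1 (14.6%, with 7.66% higher and 6.94% lower), 1 for hpr1 (0.00519%), 97 for shm1 (0.503%) and 32 for glyk1 (0.166%), over the same 3 WT libraries. Against single mutants, with the pglp1 libraries shared, pglp1 differed in 1922 genes from hpr1 (9.97%), in 3150 from shm1 (16.3%) and in 3011 from glyk1 (15.6%). 579 genes were higher and 565 lower in all 3 single comparisons (3% and 2.93%).

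The rank correlation over genes was 0.991 between the 2 pglp1 libraries and 0.94 to 0.961 between pglp1 and another mutant. It was 0.957 to 0.992 between libraries of different other mutants and 0.941 to 0.985 between another mutant and WT. Between WT replicates it was 0.938 to 0.973. The values of pglp1 with another mutant lie within that last range, so these correlations do not by themselves set pglp1 apart. The first principal component (33.9% of the variance) held pglp1 at 83.6 and 90 and the other HC libraries between -37 and -1.46. The number of calls depends on the 2 pglp1 libraries: without replicate 1 of pglp1 it was 980 higher and 636 lower, and without replicate 2 it was 328 higher and 165 lower. Leaving out a library of another group also moved the counts by over 1.5 times in some cases, to 1502 higher and 1162 lower without hpr1 replicate 2, 1433 and 1041 without shm1 replicate 1, 1613 and 1069 without shm1 replicate 2, and 3234 and 2745 without WT replicate 3. The 3 single comparisons with pglp1 were lowest without its replicate 2, at 119 genes for hpr1, 355 for shm1 and 216 for glyk1, and highest without WT replicate 3, at 3404, 5312 and 5139, while pglp1 against WT gave 210 genes without pglp1 replicate 2.

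The low counts of the other mutants moved more than those of pglp1. By DESeq2, 2774 genes were higher and 2172 lower in pglp1 than in the other mutants, and the same contrast called 1884 genes for hpr1, 1126 for shm1 and 934 for glyk1. Without WT replicate 1 it called 1864, 546 and 199 genes for hpr1, shm1 and glyk1, and without WT replicate 3 it called 1505, 273 and 4. Without the first shm1 library it called 2, 3 and 2. Against WT, leaving out WT replicate 1 gave 2 genes for hpr1, 1278 for shm1 and 1505 for glyk1, and leaving out WT replicate 3 gave 3, 289 and 216. Without pglp1 replicate 1 or replicate 2, shm1 had 45 genes against WT and glyk1 had 1. Of the 153 called genes that the rule for named genes chose, none changed direction in any of 24 alternatives in which it was tested. They were chosen by calls in these same libraries, so their direction had little room to change. Among them, 44 lost no call where tested. The fit thinned to the shallowest library gave a value for 145 of the 153, and DESeq2 for 151. Of the 153, 18 reached the filter on low counts only through the pglp1 libraries.

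**Figure D1:**
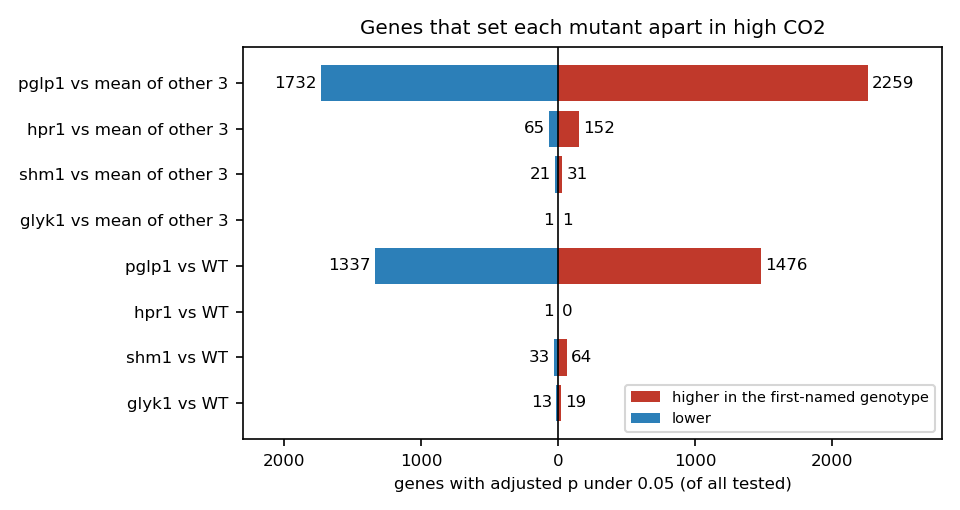
Number of genes with an adjusted p under 0.05 (x axis, of all tested) that were higher (red, right) or lower (blue, left) in the first-named genotype at HC, for each mutant against the mean of the other 3 and against WT (rows). The 2259 and 1732 genes of pglp1 against the other mutants stand against 152 and 65 genes or fewer for any other mutant.

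The targeted transcripts followed the labels. PGLP1 (AT5G36700, chromosome 5, 14421182 to 14424610, minus strand, TAIR10.1) had 11.7 and 13.1 CPM in pglp1, against 72 and 98.6 CPM in hpr1, 58.6 and 95.7 CPM in shm1, 65.8 and 63 CPM in glyk1 and 91.4, 86.9 and 102 CPM in WT. PGLP1 differed by -2.59 on the log2 scale (SE 0.23, adjusted p = 0.000283). A near-identical copy lies on the same chromosome (AT5G36790, 14480482 to 14483927, minus strand), and the reads of both loci may have been split between them. That copy had 13.1 and 13.6 CPM in pglp1, against 409 and 363 CPM in hpr1, 239 and 279 CPM in shm1, 315 and 262 CPM in glyk1 and 272, 365 and 204 CPM in WT. AT5G36790 differed by -4.52 on the log2 scale (SE 0.28, adjusted p = 7.64e-05). Both loci were below all other libraries, and how much of each value belongs to which copy is uncertain. HPR1 had 1.64 and 1.42 CPM in its own mutant, SHM1 90.2 and 115 CPM in shm1 and GLYK 1.43 and 1.33 CPM in glyk1, so the difference of each of these genes includes the insertion itself. Without the hpr1 libraries the HPR1 difference was 0.31 (log2, adjusted p = 0.396), and without the shm1 libraries the SHM1 difference was 0.36 (adjusted p = 0.286). Without the glyk1 libraries the GLYK difference was 0.58 (adjusted p = 0.0896).

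Genes of nitrate assimilation were among those that set pglp1 apart. Plants reduce nitrate to nitrite with nitrate reductase (NIA1 and NIA2) and nitrite to ammonium with nitrite reductase (NIR1), and ASN2 makes asparagine, which stores nitrogen. Of 14 tested nitrogen genes, 6 were higher and 2 lower, against 11.7% and 8.98% of all tested genes. The other 6 were not called. Of the 6 higher genes, 4 were higher in all 3 single comparisons, against 3% of all genes. The summed level of the 14 was 3380 and 5030 CPM in pglp1, against 1520 to 1720 CPM in the other mutants and 1500 to 1710 CPM in WT.

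NIA1 (AT1G77760, chromosome 1, 29235721 to 29239484, minus strand) had 260 and 564 CPM in pglp1, against 21.3 and 17.9 CPM in hpr1, 5.67 and 5.84 CPM in shm1, 13.9 and 9.08 CPM in glyk1 and 12.4, 18.1 and 20.6 CPM in WT. NIA1 differed by 5.24 on the log2 scale (SE 0.28, adjusted p = 4.74e-05). NIA2 (AT1G37130, chromosome 1, 14158452 to 14161938, plus strand) had 883 and 1310 CPM in pglp1, against 118 and 135 CPM in hpr1, 55.9 and 35.9 CPM in shm1, 73.9 and 65.8 CPM in glyk1 and 134, 112 and 146 CPM in WT. NIA2 differed by 3.89 on the log2 scale (SE 0.2, adjusted p = 4.74e-05). In both genes the 2 pglp1 libraries lay above all 9 others, with shm1 the lowest, and in NIA1 hpr1 and glyk1 overlapped with WT. NIR1 had 632 and 1190 CPM in pglp1, against 259 and 197 CPM in hpr1, 134 and 158 CPM in shm1, 193 and 141 CPM in glyk1 and 92.2, 203 and 297 CPM in WT. NIR1 differed by 2.36 on the log2 scale (SE 0.36, adjusted p = 0.00293). ASN2 had 441 and 709 CPM in pglp1, against 134 and 89.3 CPM in hpr1, 58.3 and 71.8 CPM in shm1, 106 and 88.2 CPM in glyk1 and 51.5, 79.4 and 93.7 CPM in WT. ASN2 differed by 2.69 on the log2 scale (SE 0.25, adjusted p = 0.000306). Against WT the log2 differences were 4.6, adjusted p = 0.000624 for NIA1, 3.07, adjusted p = 0.000624 for NIA2, 2.21, adjusted p = 0.0128 for NIR1 and 2.94, adjusted p = 0.00129 for ASN2.

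The nitrate transporter genes were higher too, at other levels. NRT1.1, a transporter and nitrate sensor, had 55.2 and 60.4 CPM in pglp1, against 23.6 to 50.9 CPM in the other mutants and 47.3 to 58.1 CPM in WT. NRT1.1 differed by 0.88 on the log2 scale (SE 0.14, adjusted p = 0.00358). Its pglp1 libraries were above all other mutants and within a few CPM of WT replicates 2 and 3, and the difference from WT did not pass (0.11, adjusted p = 0.702). NRT2.1, a high-affinity transporter best known from roots, stayed low, with 1.13 and 2.35 CPM in pglp1, against 0.0355 to 0.19 CPM in the other mutants and 0.0951 to 1.03 CPM in WT. NRT2.1 differed by 3.92 on the log2 scale (SE 0.78, adjusted p = 0.00893), and against WT by 2.19 (adjusted p = 0.132). This gene reached the filter on low counts only through pglp1, so its test adds nothing to its counts. The genes of glutamate dehydrogenase were lower: GDH1 had 38.8 and 35.5 CPM in pglp1, against 54.4 to 89.3 CPM in the other mutants and 50.3 to 87.4 CPM in WT (-0.99, adjusted p = 0.0172), and GDH2 had 16.5 and 14.2 CPM in pglp1, against 19.3 to 28.8 CPM in the other mutants and 27 to 34.1 CPM in WT (-0.65, adjusted p = 0.024). Glutamine synthetase genes did not pass, with log2 differences of 0.56 for GLN1;1, -0.09 for GLN1;2 and -0.78 for GLN1;3.

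Calls of NIA1, NIA2 and ASN2 held in all 24 alternatives. Without pglp1 replicate 2, NIR1 had an adjusted p of 0.0713, NRT1.1 of 0.0736 and NRT2.1 of 0.183, which leaves 3 genes of the list called higher. GDH1 had 0.0934 and GDH2 0.0819 without pglp1 replicate 1, and 0.186 and 0.256 without replicate 2. GDH2 also missed the threshold without hpr1 replicate 2 (adjusted p = 0.051) and without shm1 replicate 1 (0.0585).

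**Figure D2:**
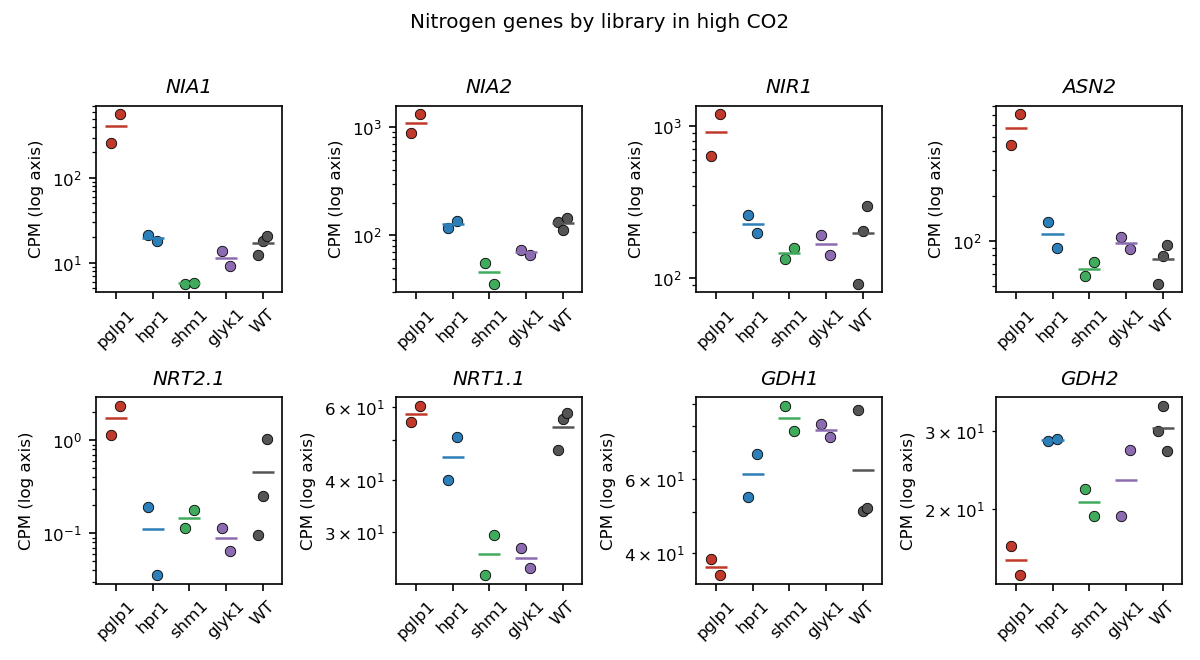
CPM of 8 nitrogen genes (log y axes, one panel per gene) in each HC library by genotype (x axis), with points for libraries and bars for group means. For NIA1, NIA2, NIR1 and ASN2 both pglp1 points lie above all others, while NRT1.1 in pglp1 lies near WT, and GDH1 and GDH2 lie below.

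Genes known to rise in sulfur-starved plants formed the list with one of the highest shares of calls. Of 12 tested, 11 were higher in pglp1 and none lower, and 10 were higher in all 3 single comparisons, against 11.7% and 3% of all genes. The median log2 difference was 2.47, against -0.0315 over all tested genes. Their summed level was 1320 and 2300 CPM in pglp1, against 186 to 405 CPM in the other mutants and 291 to 480 CPM in WT. When single libraries were left out, between 9 and 11 of the 12 stayed called higher.

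The members take part in several steps of sulfur use. APR3, a plastid reductase of activated sulfate, had 444 and 823 CPM in pglp1, against 98.1 and 130 CPM in hpr1, 51.2 and 67.2 CPM in shm1, 46.6 and 46.3 CPM in glyk1 and 66.3, 106 and 113 CPM in WT. APR3 differed by 3.22 on the log2 scale (SE 0.25, adjusted p = 0.000149). Its relative APR2 had 264 and 420 CPM in pglp1, against 86.9 and 79.8 CPM in hpr1, 50.9 and 65.7 CPM in shm1, 46.7 and 68 CPM in glyk1 and 73, 75.8 and 93.6 CPM in WT (log2 fold change 2.39, SE 0.2, adjusted p = 0.000197), and APR1 had 197 and 296 CPM in pglp1, against 41.2 to 84.3 CPM in the other mutants and 80.8 to 166 CPM in WT (1.9, adjusted p = 0.0022; 0.0552 without pglp1 replicate 2). The sulfate transporter genes were higher by less: SULTR4;2, of the vacuole membrane, had 31.4 and 37.3 CPM in pglp1, against 7.55 to 13 CPM in the other mutants and 8.11 to 13.9 CPM in WT (1.8, adjusted p = 0.00107), and SULTR1;2, a root uptake transporter, had 5.65 and 6.5 CPM in pglp1, against 2.64 to 3.38 CPM in the other mutants and 3.08 to 4.15 CPM in WT (1.0, adjusted p = 0.00748; 0.132 without pglp1 replicate 2). In all of these, the pglp1 libraries were above every other mutant library.

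SHM7, a serine hydroxymethyltransferase-like gene known from sulfur starvation, had 143 and 277 CPM in pglp1, against 27 and 32.1 CPM in hpr1, 27 and 28.9 CPM in shm1, 22.5 and 26.2 CPM in glyk1 and 24.2, 32.8 and 34.3 CPM in WT. SHM7 differed by 2.95 on the log2 scale (SE 0.21, adjusted p = 0.000108). GGCT2;1, an enzyme of glutathione breakdown, had 102 and 206 CPM in pglp1, against 7.65 and 18.9 CPM in hpr1, 1.89 and 3.03 CPM in shm1, 1.52 and 1.32 CPM in glyk1 and 2.76, 18.2 and 5.83 CPM in WT. GGCT2;1 differed by 5.42 on the log2 scale (SE 0.58, adjusted p = 0.000648). LSU1 and LSU2, genes named for their response to low sulfur, had log2 differences of 3.29, adjusted p = 0.000721 and 2.55, adjusted p = 0.000672. LSU1 had 10.1 and 21.2 CPM in pglp1, against 1.93 and 3.9 CPM in hpr1, 1.95 and 2.78 CPM in shm1, 0.572 and 0.646 CPM in glyk1 and 2.11, 4.86 and 3.43 CPM in WT. SDI1, named for induction by sulfur deficiency, had 47.7 and 85 CPM in pglp1, against 8.73 and 19.1 CPM in hpr1, 1.66 and 3.53 CPM in shm1, 1.73 and 0.801 CPM in glyk1 and 2.95, 16 and 7.2 CPM in WT. SDI1 differed by 4.22 on the log2 scale (SE 0.54, adjusted p = 0.00148). GGCT2;1 and SDI1 varied alike among the other libraries, where hpr1 replicate 2 and WT replicate 2 were the high ones, still below pglp1. BGLU28, a glucosidase that can free sulfur from glucosinolates, was the 1 tested member that did not pass (1.92, adjusted p = 0.252).

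Genes of the phosphate starvation response gave the other high share, with 13 of 14 tested members higher in pglp1 and none lower. Of the 14, 8 were higher in all 3 single comparisons. Shares over all tested genes were 11.7% higher, 8.98% lower and 3% higher in all 3. The median log2 difference was 1.66. A further 4 of the 18 list members were too low to be tested. PEPC1, among those called higher, reached the filter on low counts only through pglp1. The summed level was 651 and 704 CPM in pglp1, against 194 to 255 CPM in the other mutants and 247 to 313 CPM in WT. The count was 5 without pglp1 replicate 2 and 11 without replicate 1.

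SPX1, a phosphate sensing protein that restrains the response, had 85.3 and 93.8 CPM in pglp1, against 13.8 and 17.2 CPM in hpr1, 12.3 and 10.6 CPM in shm1, 11.2 and 10.5 CPM in glyk1 and 26.4, 16.4 and 19.9 CPM in WT. SPX1 differed by 2.85 on the log2 scale (SE 0.16, adjusted p = 5.7e-05; against WT 2.1, adjusted p = 0.00091). SQD1 and SQD2 make sulfolipid, which replaces phospholipid when phosphate is short. SQD1 had 208 and 247 CPM in pglp1, against 115 and 112 CPM in hpr1, 74.2 and 80.7 CPM in shm1, 78.1 and 63.4 CPM in glyk1 and 102, 99.6 and 143 CPM in WT. SQD1 differed by 1.42 on the log2 scale (SE 0.16, adjusted p = 0.000811). SQD2 had 211 and 202 CPM in pglp1, against 83.6 and 79.2 CPM in hpr1, 75.4 and 75.9 CPM in shm1, 78.9 and 75.2 CPM in glyk1 and 85.6, 77.4 and 64.4 CPM in WT. SQD2 differed by 1.4 on the log2 scale (SE 0.12, adjusted p = 0.000217). For SQD2 the 9 other libraries spanned 64.4 to 85.6 CPM, below both pglp1 libraries. GDPD1, which breaks down glycerophosphodiesters, had 25.1 and 33.3 CPM in pglp1, against 2.56 and 4.82 CPM in hpr1, 5.75 and 3.28 CPM in shm1, 2.55 and 3.76 CPM in glyk1 and 12.7, 4.26 and 2.97 CPM in WT (log2 fold change 2.96, SE 0.46, adjusted p = 0.00316), and WT replicate 1 stood above the other WT libraries. PPSPASE1, a phosphatase, was low, with 1.92 and 2.89 CPM in pglp1, against 0.158 and 0.0355 CPM in hpr1, 0.229 and 0.216 CPM in shm1, 0.0915 and 0.103 CPM in glyk1 and 0.708, 0.473 and 0.171 CPM in WT. PPSPASE1 differed by 4.2 on the log2 scale (SE 0.5, adjusted p = 0.00102). PAP17, an acid phosphatase, had 52.5 and 57.7 CPM in pglp1, against 6.42 to 20.1 CPM in the other mutants and 13.2 to 44.3 CPM in WT (2.28, adjusted p = 0.0073), and the phosphate transporter gene PHT1;4 had 3.84 and 4.58 CPM in pglp1, against 0.938 to 1.81 CPM in the other mutants and 1.7 to 2.17 CPM in WT (1.67, adjusted p = 0.00152). RNS1, a ribonuclease, was the tested member that did not pass (-0.05, adjusted p = 0.986). SPX1, SQD1, SQD2 and PPSPASE1 kept their calls in all 24 alternatives, and without pglp1 replicate 2 GDPD1 had an adjusted p of 0.06 and PAP17 of 0.0923.

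The 300 bases before the annotated starts of 2 of these genes are shown because they hold P1BS, the site GNATATNC that the phosphate regulator PHR1 is known to bind. The sequences are from the RefSeq TAIR10.1 genome, 5′ to 3′ towards the gene. Capitals mark matches to any of 10 motifs searched on both strands. They are P1BS, the G-box CACGTG, the W-box (TTGACC or TTGACT), the evening element AAAATATCT, the ABRE core ACGTG, the as-1 core TGACG, the mitochondrial dysfunction motif, the heat shock element GAANNTTC, the GCC box GCCGCC and the CRT core CCGAC. The G-box contains the ABRE core, and P1BS in the form GAATATTC is also a heat shock element. Both genes were chosen for display after their values were seen.
GDPD1 (chr3:350011-350310, minus strand): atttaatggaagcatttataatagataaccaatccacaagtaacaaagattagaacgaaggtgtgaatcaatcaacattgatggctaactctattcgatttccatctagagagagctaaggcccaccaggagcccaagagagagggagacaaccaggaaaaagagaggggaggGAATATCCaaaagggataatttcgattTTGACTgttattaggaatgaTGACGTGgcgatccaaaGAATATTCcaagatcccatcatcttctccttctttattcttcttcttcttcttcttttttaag
PPSPASE1 (chr1:27466349-27466648, minus strand): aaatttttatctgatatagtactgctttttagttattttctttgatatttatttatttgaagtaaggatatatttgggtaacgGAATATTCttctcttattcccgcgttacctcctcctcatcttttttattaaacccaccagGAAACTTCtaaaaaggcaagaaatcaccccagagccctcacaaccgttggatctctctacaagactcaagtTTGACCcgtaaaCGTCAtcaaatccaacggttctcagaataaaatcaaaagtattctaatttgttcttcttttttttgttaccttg
P1BS stands at -127 to -120 and -63 to -56 of GDPD1 and at -217 to -210 of PPSPASE1, counted back from the base before the start. P1BS was found in such windows of 6 of the 18 phosphate genes (33.3%), against 6.51% of 27437 windows of all genes. The 6 were AT4, AT2G45130, MGD2, PPSPASE1, GDPD1 and AT3G03530. SPX1, SQD1, SQD2, PAP17 and PHT1;4, which were called higher, have no P1BS in this window. The heat shock element, which shares letters with P1BS, was in 8 of the 18 (44.4%), against 11.5% of all. A match in letters is a description and no binding site, and windows with no match are not evidence on the factor.

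Iron homeostasis genes showed a similar difference, with a median of 1.1. Calls in this list were less stable than in the sulfur and phosphate lists, as were the calls over all tested genes. In this list 8 of 18 tested were higher and none lower, against 11.7% and 8.98% of all tested genes. NAS3, a nicotianamine synthase that makes a metal chelator, had 26.9 and 22.8 CPM in pglp1, against 0.759 and 1.63 CPM in hpr1, 0.458 and 0.0721 CPM in shm1, 0.183 and 1.8 CPM in glyk1 and 1.74, 2.73 and 2.11 CPM in WT (log2 fold change 5.17, SE 0.63, adjusted p = 0.0011), and its call held in all 24 alternatives. BHLH38, BHLH39 and BHLH100, transcription factors of iron deficiency, were near 0 in the other mutants. BHLH39 reached the filter on low counts only through pglp1, so its test adds nothing to its counts. BHLH38 had 6.32 and 6.93 CPM in pglp1, against 0 to 0.802 CPM in the other mutants and 0.0845 to 2.68 CPM in WT (5.46, adjusted p = 0.00677), with WT replicate 3 the high one among the WT libraries. BHLH100 had 5.87 and 8.13 CPM in pglp1, against 0 to 0.426 CPM in the other mutants and 0.0148 to 1.88 CPM in WT (5.96, adjusted p = 0.00925) and BHLH39 had 2.82 and 2.47 CPM in pglp1, against 0 to 0.2 CPM in the other mutants and 0 to 0.571 CPM in WT (5.17, adjusted p = 0.0117). Their adjusted p were 0.0713, 0.0983 and 0.106 without pglp1 replicate 2, and without replicate 1 that of BHLH39 was 0.063. FER1, a ferritin that stores iron, did not pass (-0.69, adjusted p = 0.559). The count fell to 4 without pglp1 replicate 1 and to 1 without replicate 2. Against WT, 2 of the 18 were called higher, near the 7.66% of all tested genes.

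Genes known to respond to mitochondrial dysfunction made up a small list in which 4 of 9 tested were higher and 1 was lower. The median was 1.3, and the same count of 4 was higher in all 3 single comparisons. Over all tested genes, 11.7% were higher, 8.98% lower and 3% higher in all 3. AOX1A, the alternative oxidase that takes electrons past the cytochrome path, had 161 and 166 CPM in pglp1, against 25.6 and 35.4 CPM in hpr1, 33.2 and 36.3 CPM in shm1, 36.3 and 41.9 CPM in glyk1 and 42, 38.5 and 30.7 CPM in WT. AOX1A differed by 2.24 on the log2 scale (SE 0.15, adjusted p = 7.64e-05). NAC013, a transcription factor of this response, had 40 and 41.5 CPM in pglp1, against 7.65 and 9.26 CPM in hpr1, 9.91 and 8.76 CPM in shm1, 10.1 and 14 CPM in glyk1 and 14.7, 9.56 and 8.28 CPM in WT. NAC013 differed by 2.05 on the log2 scale (SE 0.2, adjusted p = 0.000429). UGT74E2, a glucosyltransferase of an auxin relative, had 21.1 and 22.8 CPM in pglp1, against 0.0949 and 0.0709 CPM in hpr1, 0.0286 and 0 CPM in shm1, 0.0457 and 0.0258 CPM in glyk1 and 0.0845, 0 and 0.343 CPM in WT, from 565 counts in pglp1 and 12 in the other mutants (log2 fold change 9.11, SE 0.64, adjusted p = 8.91e-05). UGT74E2 reached the filter on low counts only through the pglp1 libraries, so its test adds nothing to its counts. It is nevertheless 1 of the 4 genes counted as higher in this list. AT2G21640 had 6.89 and 7.11 CPM in pglp1, against 3.07 and 3.4 CPM in hpr1, 2.92 and 2.81 CPM in shm1, 2.63 and 2.35 CPM in glyk1 and 3.71, 3.69 and 5.14 CPM in WT. AT2G21640 differed by 1.3 on the log2 scale (SE 0.18, adjusted p = 0.00192). In these 4 genes the 2 pglp1 libraries were close to each other and above all 9 other HC libraries, WT included. Leaving out any 1 library left the count at 4.

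NAC017, a regulator of the response that is itself held at the endoplasmic reticulum until released, was lower, with 33 and 35.1 CPM in pglp1, against 46 to 54.4 CPM in the other mutants and 50 to 70.3 CPM in WT (-0.58, adjusted p = 0.0276). That call was lost without pglp1 replicate 1 (0.166) or 2 (0.179), without hpr1 replicate 2 (0.0626), without shm1 replicate 1 (0.066) or 2 (0.0594) and without glyk1 replicate 2 (0.0585). The alternative NAD(P)H dehydrogenase genes did not pass, at 0.44 for NDA1 and 0.59 for NDB2, nor did AOX1D (2.89, adjusted p = 0.222), for which hpr1 replicate 2 and WT replicate 1 were the highest libraries.

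The mitochondrial dysfunction motif, which NAC013 and NAC017 are known to bind, stood before 4 of the 9 genes (44.4%: NDB2, NDA1, AT2G21640 and NAC017), against 2.08% of all windows. NDA1 and NDB2 hold the motif and were not called, and NAC017, which also holds it, was called lower. Of the 4 genes called higher, AT2G21640 holds the motif, while AOX1A, NAC013 and UGT74E2 do not hold it in this window. AT4G12735 is shown beside AT2G21640 because it has the motif in its window at 2 places and one of the highest differences of all genes. It had 9.94 and 9.94 CPM in pglp1, against 0.0316 and 0.106 CPM in hpr1, 0.0573 and 0.0361 CPM in shm1, 0.0229 and 0.0646 CPM in glyk1 and 0.306, 0.0739 and 0.171 CPM in WT. AT4G12735 differed by 7.51 on the log2 scale (SE 0.49, adjusted p = 7.64e-05). This gene reached the filter on low counts only through pglp1, so its test adds nothing to its counts. AT4G12735 came from the rule on the smallest p, and AT2G21640 was chosen after its values were seen.
AT4G12735 (chr4:7494235-7494534, minus strand): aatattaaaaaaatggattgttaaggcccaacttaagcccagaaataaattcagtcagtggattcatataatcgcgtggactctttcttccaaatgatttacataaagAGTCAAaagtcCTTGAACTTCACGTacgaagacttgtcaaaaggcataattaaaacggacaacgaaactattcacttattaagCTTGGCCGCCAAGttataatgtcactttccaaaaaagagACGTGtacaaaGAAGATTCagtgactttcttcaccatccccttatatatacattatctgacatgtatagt
AT2G21640 (chr2:9254078-9254377, plus strand): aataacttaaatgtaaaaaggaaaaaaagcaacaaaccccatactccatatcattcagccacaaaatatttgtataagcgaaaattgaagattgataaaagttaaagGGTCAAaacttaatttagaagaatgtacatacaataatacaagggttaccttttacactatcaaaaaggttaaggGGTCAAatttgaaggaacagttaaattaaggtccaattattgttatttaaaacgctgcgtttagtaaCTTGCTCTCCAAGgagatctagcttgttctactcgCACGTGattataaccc
Capitals are as above, and the mitochondrial dysfunction motif stands at -181 to -169 and -109 to -97 of AT4G12735 and at -51 to -39 of AT2G21640. AT4G12735 also has 1 W-box, 1 heat shock element, 2 ABRE cores, of which the upstream one overlaps with the mitochondrial dysfunction motif, and a GCC box that lies inside that motif's downstream copy. AT2G21640 also has 2 W-boxes and 1 G-box, which holds the ABRE core on both strands.

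**Figure D3:**
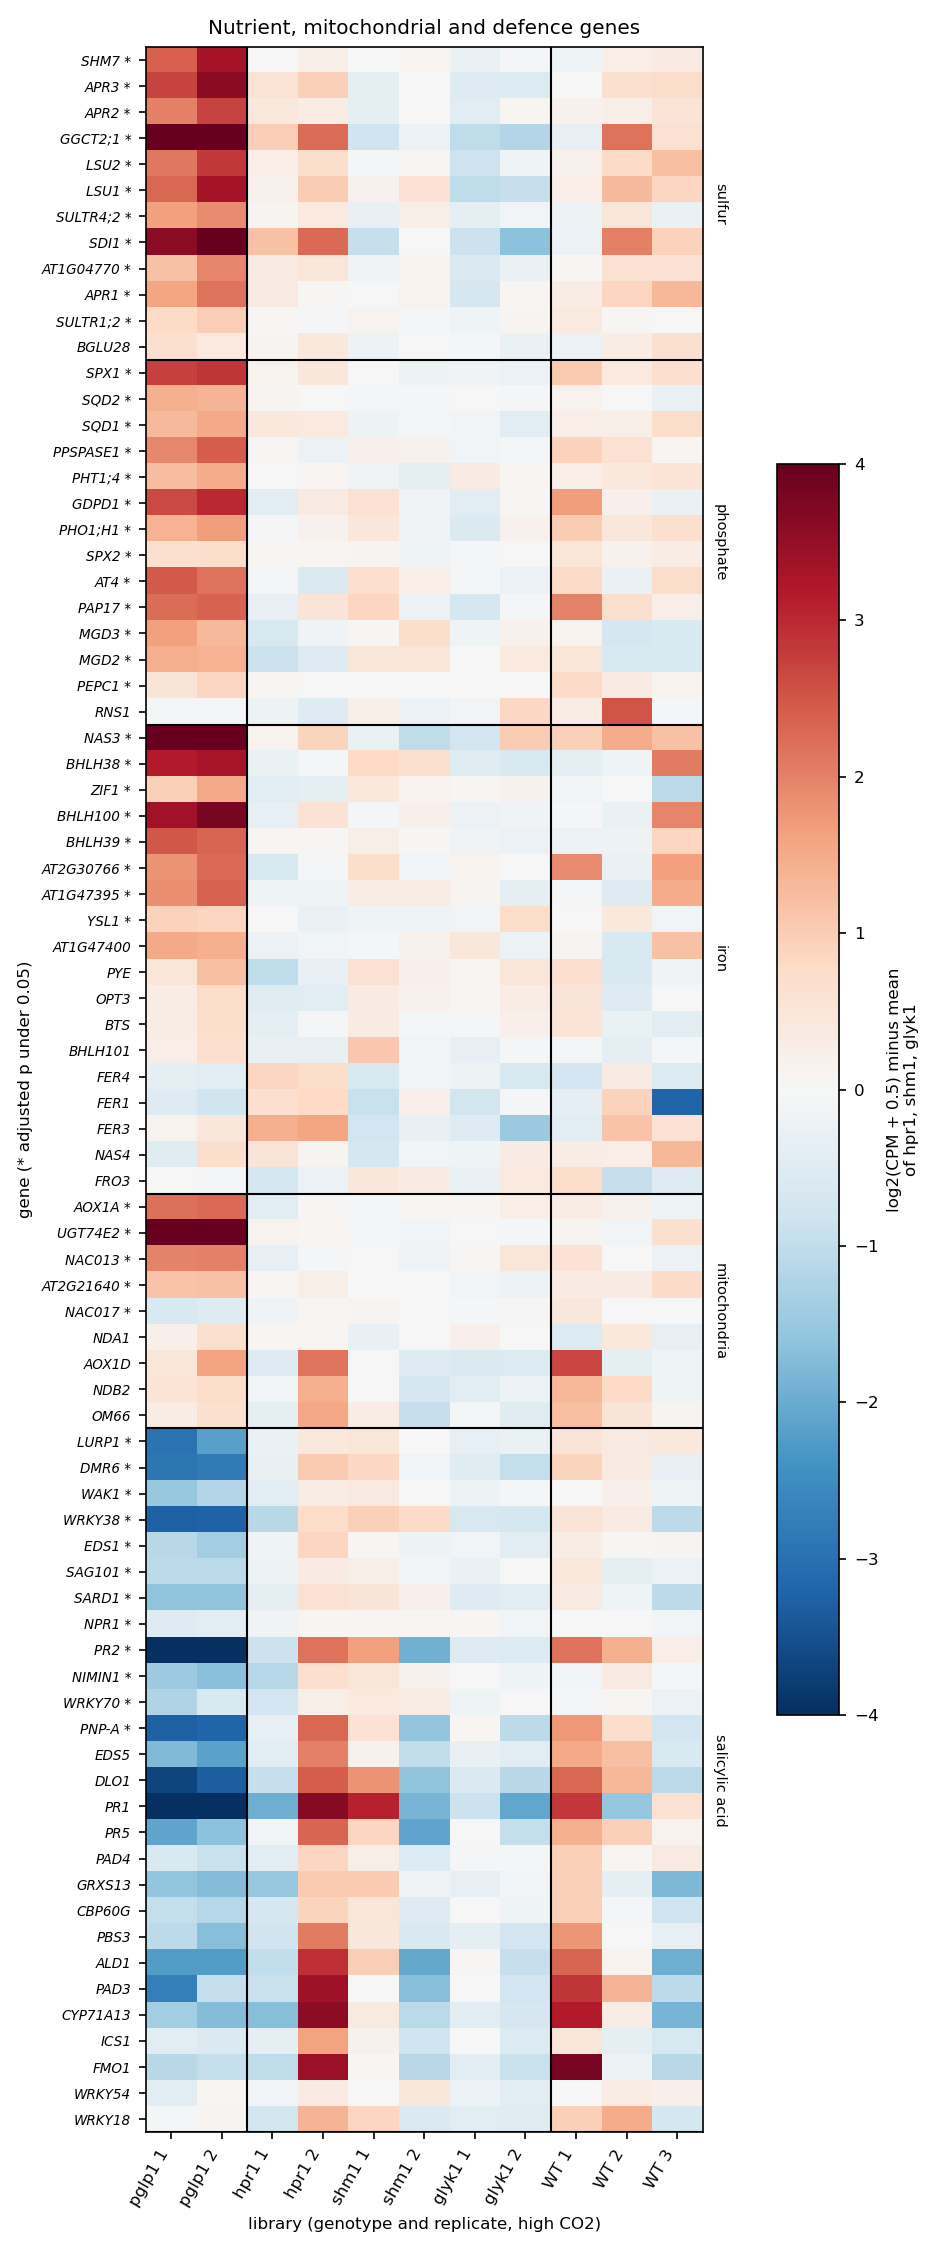
Levels of the tested sulfur, phosphate, iron, mitochondrial dysfunction and salicylic acid genes (rows, asterisk for an adjusted p under 0.05) in the 11 HC libraries (columns), as log2(CPM + 0.5) minus the mean of hpr1, shm1 and glyk1, with colours clipped at -4 and 4. Both pglp1 columns are red through most of the first 2 blocks, with RNS1 an exception, and blue through most of the last, where hpr1 replicate 2 and WT replicate 1 are the reddest.

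Clock genes were shifted as well, with 11 of 20 tested higher and 1 lower and 6 higher in all 3 single comparisons. The matching shares of all tested genes were 11.7%, 8.98% and 3%. CCA1 and LHY, the morning transcription factors of the clock, fall to a low level by the middle of the day. CCA1 had 12.6 and 14.2 CPM in pglp1, against 3.89 and 3.79 CPM in hpr1, 2.15 and 2.49 CPM in shm1, 2.9 and 4.13 CPM in glyk1 and 4.39, 3.16 and 3.08 CPM in WT. CCA1 differed by 2.09 on the log2 scale (SE 0.19, adjusted p = 0.000278). LHY had 6.1 and 5.66 CPM in pglp1, against 2.47 and 2.41 CPM in hpr1, 0.601 and 0.829 CPM in shm1, 1.75 and 1.77 CPM in glyk1 and 2.55, 2.17 and 2.23 CPM in WT. LHY differed by 2.01 on the log2 scale (SE 0.19, adjusted p = 0.000337). Both were above all 9 other libraries in pglp1, at a low level for all. PRR9 and PRR5 are repressors that act in turn through the day. PRR9 had 25.4 and 32 CPM in pglp1, against 5.23 to 11.1 CPM in the other mutants and 4.8 to 13.5 CPM in WT (2.0, adjusted p = 0.00362). PRR5 had 219 and 274 CPM in pglp1, against 101 to 128 CPM in the other mutants and 108 to 114 CPM in WT (1.08, adjusted p = 0.000939). LNK2, a co-activator of evening genes, had 88.1 and 106 CPM in pglp1, against 43.5 to 50.2 CPM in the other mutants and 32.8 to 41.5 CPM in WT (1.05, adjusted p = 0.00106). ELF3, part of the evening complex, was lower, with 41.2 and 47.3 CPM in pglp1, against 62.3 to 71.4 CPM in the other mutants and 66.7 to 72 CPM in WT (-0.58, adjusted p = 0.00762). GI, ELF4 and PRR7 did not pass, with log2 differences of -0.08, 0.01 and 0.21.

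CCA1, LHY, PRR5 and LNK2 kept their calls in all 24 alternatives. Without pglp1 replicate 2 PRR9 had an adjusted p of 0.073 and ELF3 of 0.0624, and without replicate 1 ELF3 had 0.0863. The count of higher clock genes was 7 without pglp1 replicate 1 and 4 without replicate 2. All libraries were sampled at the same hour, so a shift of phase and a change of level cannot be told apart.

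Photorespiration genes themselves were moderately higher. Of 33 tested, 14 were higher and 3 lower, against 11.7% and 8.98% of all tested genes, with a median of 0.552. Of the 28 that are no targeted gene or copy, 11 were higher and 1 lower with a median of 0.517. CAT2, the peroxisomal catalase, had 338 and 393 CPM in pglp1, against 144 to 250 CPM in the other mutants and 128 to 194 CPM in WT. CAT2 differed by 1.02 on the log2 scale (SE 0.17, adjusted p = 0.00442). GLDP1, a subunit of mitochondrial glycine decarboxylase, had 1630 and 1880 CPM in pglp1, against 759 to 1030 CPM in the other mutants and 853 to 1210 CPM in WT (log2 fold change 0.92, SE 0.17, adjusted p = 0.00667), and GOX1, a glycolate oxidase of peroxisomes, had 1120 and 1210 CPM in pglp1, against 660 to 746 CPM in the other mutants and 618 to 789 CPM in WT. GOX1 differed by 0.72 on the log2 scale (SE 0.14, adjusted p = 0.00846). In each of these 3 genes the pglp1 libraries were above all 6 other mutant libraries. PGLP2, the cytosolic phosphoglycolate phosphatase, did not pass (-0.02), nor did SHM2 (-0.05) or HPR3 (-0.05).

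These calls depended on single libraries, as the calls over all tested genes did. Without pglp1 replicate 2, the adjusted p was 0.0897 for CAT2, 0.118 for GLDP1 and 0.129 for GOX1, and without replicate 1 that of GOX1 was 0.0514. The count of higher photorespiration genes was 6 without pglp1 replicate 1, 3 without replicate 2, 8 without hpr1 replicate 2 and 7 without shm1 replicate 1.

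Of 24 Calvin-Benson genes, 8 were higher and none lower (median 0.515), against 11.7% and 8.98% of all tested genes. RBCS1B, a small subunit gene of Rubisco, had 3260 and 4130 CPM in pglp1, against 469 to 2500 CPM in the other mutants and 963 to 2470 CPM in WT (log2 fold change 1.85, SE 0.32, adjusted p = 0.00529), and FBA1, a plastid aldolase, had 904 and 1100 CPM in pglp1, against 273 to 679 CPM in the other mutants and 620 to 752 CPM in WT. FBA1 differed by 1.28 on the log2 scale (SE 0.16, adjusted p = 0.00132). FBA1 kept its call in all 24 alternatives, RBCS1B had an adjusted p of 0.0881 without pglp1 replicate 2, and small subunit genes are close in sequence, so their reads may be split. The count was 4 without hpr1 replicate 1, hpr1 replicate 2 or shm1 replicate 1, 5 without glyk1 replicate 2, 3 without pglp1 replicate 1 and 1 without pglp1 replicate 2. Against WT, 1 of the 24 was higher and 1 lower, against 7.66% and 6.94% of all tested genes. Light harvesting genes had 1 of 21 higher and 4 lower (median -0.263), against 11.7% and 8.98% of all tested genes, and the count of lower genes was 0 without pglp1 replicate 2, 8 without WT replicate 3 and 2 without any 1 library of hpr1, shm1 or glyk1 or without pglp1 replicate 1.

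Starch and sucrose genes were higher in 10 of 31 and lower in 2 (median 0.419), against 11.7% and 8.98% of all tested genes. SPS4F, a sucrose phosphate synthase, had 145 and 154 CPM in pglp1, against 25.4 and 38.7 CPM in hpr1, 14.9 and 13.3 CPM in shm1, 14.8 and 19.8 CPM in glyk1 and 74, 33.4 and 32.6 CPM in WT. SPS4F differed by 2.91 on the log2 scale (SE 0.29, adjusted p = 0.000409; against WT 1.68, adjusted p = 0.015). GBSS1, the starch synthase of amylose, had 32.7 and 49.3 CPM in pglp1, against 7.27 and 9.11 CPM in hpr1, 7.7 and 5.08 CPM in shm1, 5.25 and 6.29 CPM in glyk1 and 24.4, 24 and 5.77 CPM in WT (log2 fold change 2.62, SE 0.41, adjusted p = 0.00324), with WT replicates 1 and 2 between pglp1 and the other mutants. DPE2, a cytosolic enzyme of maltose use, had 626 and 651 CPM in pglp1, against 272 to 371 CPM in the other mutants and 227 to 368 CPM in WT (1.01, adjusted p = 0.00678). SWEET11, a sucrose exporter in the phloem marker list, had 89.1 and 95.3 CPM in pglp1, against 32.1 to 41.9 CPM in the other mutants and 36.4 to 54.9 CPM in WT. SWEET11 differed by 1.42 on the log2 scale (SE 0.15, adjusted p = 0.000682). Genes of the carbon starvation list were lower in 8 of 22, against 8.98% of all tested genes, with none higher and a median of -0.668. TPS11, a trehalose-phosphate synthase homologue that rises when sugar is short, had 23.1 and 11.4 CPM in pglp1, against 29.8 to 104 CPM in the other mutants and 18 to 36.6 CPM in WT (-1.71, adjusted p = 0.0137), and DIN10, a dark-induced gene, had 13.7 and 7.71 CPM in pglp1, against 17.7 to 54.4 CPM in the other mutants and 11.3 to 14.2 CPM in WT (-1.7, adjusted p = 0.00695). For both genes WT overlapped with pglp1, and 2 of the 22 were lower against WT, near the 6.94% of all tested genes.

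SPS4F kept its call in all 24 alternatives. Without pglp1 replicate 2 the adjusted p was 0.0713 for GBSS1, 0.0979 for DPE2, 0.175 for TPS11 and 0.119 for DIN10. The 10 higher starch and sucrose genes became 4 without pglp1 replicate 1 and 1 without replicate 2. The 8 lower carbon starvation genes became 0 without pglp1 replicate 2 and 5 without hpr1 replicate 1, shm1 replicate 1, shm1 replicate 2 or glyk1 replicate 2.

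Genes of salicylic acid defence were lower. Of 27 tested, 12 were lower, 5 of them in all 3 single comparisons, against 8.98% and 2.93% of all tested genes. None was higher, and the median log2 difference was -2.09. The summed level was 522 and 669 CPM in pglp1, against 1380 to 4180 CPM in the other mutants and 1900 to 3410 CPM in WT. LURP1, a gene induced with resistance to downy mildew, had 60.5 and 104 CPM in pglp1, against 386 and 625 CPM in hpr1, 653 and 458 CPM in shm1, 375 and 386 CPM in glyk1 and 670, 602 and 620 CPM in WT. LURP1 differed by -2.53 on the log2 scale (SE 0.3, adjusted p = 0.000999). DMR6, an enzyme that breaks down salicylic acid, had 12.6 and 13.2 CPM in pglp1, against 79.5 and 204 CPM in hpr1, 172 and 89.5 CPM in shm1, 69.1 and 49.8 CPM in glyk1 and 180, 124 and 77.8 CPM in WT. DMR6 differed by -3.0 on the log2 scale (SE 0.5, adjusted p = 0.00437). WRKY38, a transcription factor of this pathway, had 0.565 and 0.602 CPM in pglp1, against 4.27 and 16.7 CPM in hpr1, 19.6 and 16.9 CPM in shm1, 6.13 and 5.79 CPM in glyk1 and 14.2, 12.5 and 4.51 CPM in WT. WRKY38 differed by -4.14 on the log2 scale (SE 0.77, adjusted p = 0.00659). PR2, a glucanase of the defence response, had 8.81 and 7.83 CPM in pglp1, against 87.7 and 732 CPM in hpr1, 507 and 42.4 CPM in shm1, 112 and 110 CPM in glyk1 and 727, 430 and 192 CPM in WT (log2 fold change -4.8, SE 1.24, adjusted p = 0.0257), with a wide spread among the other libraries. PR1 had no count in either pglp1 library, against 4.39 to 255 CPM in the other mutants, and did not pass (adjusted p = 0.0954).

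LURP1 stayed called without any 1 HC library. With pglp1 replicate 2 left out the adjusted p was 0.0777 for DMR6, 0.112 for WRKY38 and 0.224 for PR2, and without replicate 1 it was 0.0557 for WRKY38 and 0.143 for PR2. The count of lower members was 2 without pglp1 replicate 1 and 1 without replicate 2. The W-box, which WRKY factors bind, was in the windows of 3 of the 27 genes (11.1%), against 32.3% of all.

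Other lists differed less or had calls that depended on single libraries, as the calls over all tested genes did. Anthocyanin and flavonoid genes were higher in 9 of 19 and lower in 2 (median 0.77), but their median against WT was -0.318, and the count of 9 became 4 and 5 without hpr1 replicate 1 and 2, 3 without either shm1 library, 6 and 5 without glyk1 replicate 1 and 2, 3 without pglp1 replicate 1 and 1 without replicate 2. CHS, chalcone synthase, had 32.3 and 62.3 CPM in pglp1, against 82.5 and 88.1 CPM in hpr1, 7.64 and 8.22 CPM in shm1, 16.7 and 9.91 CPM in glyk1 and 72.7, 156 and 106 CPM in WT, and hpr1 and WT were above pglp1 there. Jasmonate genes had 1 of 23 lower, abscisic acid genes 1 of 22 higher and 1 lower, and endoplasmic reticulum stress genes none of 8 in either direction (0 higher and 2 lower at an unadjusted p under 0.05, and 1 lower by DESeq2). These counts lie near or below the 11.7% higher and 8.98% lower of all tested genes and say nothing particular about the lists. The calls of LOX3, ABF3 and RAB18 behind them were lost without pglp1 replicate 2 (0.196, 0.225 and 0.13) or 1 (0.0808, 0.142 and 0.182). In the low-oxygen list 2 of 11 were higher and 4 lower. HRE2, an ethylene response factor, had 1.92 and 2.17 CPM in pglp1, against 0 to 0.106 CPM in the other mutants and 0 to 0.0211 CPM in WT (5.72, adjusted p = 0.000285). HRE2 reached the filter on low counts only through pglp1, so its test adds nothing to its counts. LBD41, a marker of low oxygen, had 10.7 and 6.38 CPM in pglp1, against 18.9 to 32.7 CPM in the other mutants and 25.4 to 26.2 CPM in WT (-1.52, adjusted p = 0.00227). LBD41 kept its call in all 24 alternatives, and the count of lower genes was 1 without shm1 replicate 1 or either pglp1 library. TCH4, a cell wall xyloglucan enzyme induced by touch, had 27.9 and 28.4 CPM in pglp1, against 1.36 and 3.16 CPM in hpr1, 5.12 and 3.75 CPM in shm1, 3.58 and 4 CPM in glyk1 and 1.37, 1.88 and 2.86 CPM in WT (log2 fold change 3.07, SE 0.29, adjusted p = 0.000353) and was the 1 cell wall gene of 15 that was higher, with 3 lower (none without pglp1 replicate 2, and 5 without WT replicate 3).

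**Figure D4:**
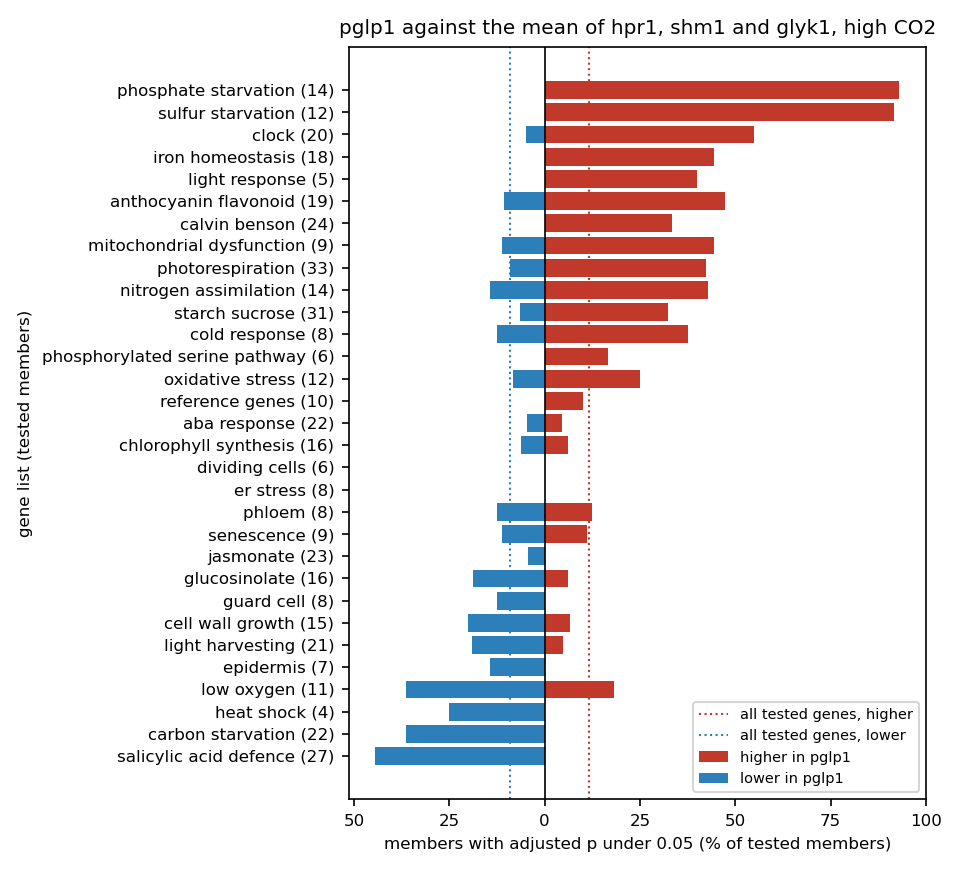
Share of the tested members of each gene list (rows, number tested in brackets, ordered by the share higher minus the share lower) called higher (red, right) or lower (blue, left) in pglp1 than in the mean of hpr1, shm1 and glyk1 at HC, with dotted lines for all tested genes at 11.7% and 8.98%. The phosphate and sulfur lists stand near the top and the salicylic acid list at the bottom.

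Marker genes of cell types and states in the leaf gave counts that, in lists this small, say nothing apart from the 11.7% of all tested genes called higher and the 8.98% called lower. Guard cell markers had 0 of 8 higher and 1 lower, epidermis markers 0 of 7 and 1, phloem markers 1 of 8 and 1, and dividing cell markers none of 6, also at an unadjusted p under 0.05 and by DESeq2. The single lower genes KAT1, FDH and PP2-A1 missed the threshold without pglp1 replicate 2 (0.235, 0.238 and 0.106) and without replicate 1 (0.209, 0.12 and 0.0927). The summed level of guard cell markers was 1590 and 1790 CPM in pglp1, against 1230 to 2680 CPM in the other mutants and 795 to 2170 CPM in WT, and that of phloem markers was 585 and 685 CPM in pglp1, against 462 to 785 CPM in the other mutants and 479 to 686 CPM in WT. Floral markers summed to 1.13 and 0.843 CPM in pglp1, against 0.973 to 2.32 CPM in the other mutants, and root markers to 0.113 and 0.241 CPM in pglp1, against 0.0286 to 0.248 CPM in the other mutants, so both were near 0 in every library. Light harvesting genes, which define green leaf tissue, summed to 115000 and 114000 CPM in pglp1, against 98200 to 170000 CPM in the other mutants and 78900 to 143000 CPM in WT. Of 10 reference genes, 1 was higher, against 11.7% of all genes: GAPC2 (1310 and 1760 CPM in pglp1, against 629 to 928 CPM in the other mutants and 723 to 782 CPM in WT; 1.01, adjusted p = 0.00266, and 0.0713 without pglp1 replicate 2).

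Some genes were seen in pglp1 and hardly at all elsewhere. TPS2 (AT1G16980, chromosome 1, 5807200 to 5811610, plus strand), a trehalose-phosphate synthase homologue, had 119 and 51.4 CPM in pglp1, from 1910 counts. It had no count in any library of the other mutants or WT. Taking 3 counts over the 6 other mutant libraries as the limit of a count of 0, it was at least 7190-fold higher. UGT73C1 (AT2G36750, chromosome 2, 15410376 to 15412064, minus strand), a glucosyltransferase known from xenobiotic and cytokinin conjugation, had 10.3 and 11.6 CPM in pglp1, from 284 counts, against none in the other mutants and at most 0.0296 CPM in WT, and was at least 1070-fold higher. BGLU19, a glucosidase gene, had 5.08 and 4.46 CPM in pglp1 and no count in the other mutants or WT, and was at least 448-fold higher. These limits cover counting error only. TPS2, UGT73C1 and BGLU19 reached the filter on low counts only through pglp1, as did 179 of all 19279 tested genes, so their tests add nothing to these counts. The same holds for UGT74E2, AT4G12735 and AT2G04050, and for the called list members HRE2, NRT2.1, BHLH39 and PEPC1.

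Other genes with high differences had some counts elsewhere. AT5G51440, a small heat shock protein gene, had 10.5 and 14.9 CPM in pglp1, against 0.144 to 0.922 CPM in the other mutants and 0.296 to 0.685 CPM in WT (5.38, adjusted p = 0.000184), and AT2G04050, a MATE family transporter gene, had 5.08 and 5.6 CPM in pglp1, against 0.0229 to 0.172 CPM in the other mutants and 0.0443 to 0.286 CPM in WT (5.71, adjusted p = 0.000436). Among genes that were lower, GSTU26, a glutathione transferase gene, had 0 and 0.422 CPM in pglp1, against 6.29 and 5.53 CPM in hpr1, 5.84 and 4.58 CPM in shm1, 6.49 and 4.55 CPM in glyk1 and 6.21, 7.27 and 9.25 CPM in WT. GSTU26 differed by -4.38 on the log2 scale (SE 0.55, adjusted p = 0.00125). AT1G17200 had 3.05 and 1.69 CPM in pglp1, against 31.3 and 32 CPM in hpr1, 30.3 and 35 CPM in shm1, 36.3 and 28.7 CPM in glyk1 and 36.9, 30.2 and 36.2 CPM in WT. AT1G17200 differed by -3.84 on the log2 scale (SE 0.25, adjusted p = 7.64e-05). GSTU26 (5875295 to 5876620) and AT1G17200 (5878390 to 5880073) are neighbours on the plus strand of chromosome 1, and TPS2 starts at 5807200 on the same strand. AT5G55450, a lipid transfer protein gene, had 3.5 and 6.2 CPM in pglp1, against 35.3 to 192 CPM in the other mutants and 110 to 137 CPM in WT (-4.01, adjusted p = 0.00271). The calls of AT5G51440, GSTU26, AT1G17200 and AT5G55450 held in all 24 alternatives. CYP83B1, a glucosinolate enzyme, had 84.7 and 52.5 CPM in pglp1, against 286 to 515 CPM in the other mutants and 279 to 586 CPM in WT (-2.37, adjusted p = 0.00333; 0.0719 without pglp1 replicate 2).

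The windows before UGT73C1 and AT1G17200 also came from the rule on the smallest p, and are shown as one gene that was higher and one that was lower.
UGT73C1 (chr2:15412065-15412364, minus strand): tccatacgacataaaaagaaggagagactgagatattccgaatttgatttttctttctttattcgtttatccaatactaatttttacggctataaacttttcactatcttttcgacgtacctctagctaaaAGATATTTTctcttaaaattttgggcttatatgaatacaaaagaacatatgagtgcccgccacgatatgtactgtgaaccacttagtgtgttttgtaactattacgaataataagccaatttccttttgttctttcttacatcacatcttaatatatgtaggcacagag
AT1G17200 (chr1:5878090-5878389, plus strand): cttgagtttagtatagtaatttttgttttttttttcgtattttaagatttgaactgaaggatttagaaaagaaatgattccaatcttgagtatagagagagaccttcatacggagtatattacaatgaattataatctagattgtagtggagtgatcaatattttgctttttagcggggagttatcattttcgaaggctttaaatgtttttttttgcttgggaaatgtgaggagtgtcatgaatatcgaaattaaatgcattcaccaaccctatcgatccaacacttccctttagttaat
UGT73C1 has 1 match, an evening element at -169 to -161 in the reverse direction, a motif found in 2.79% of all windows, and AT1G17200 has none of the 10 motifs.

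Loci on chromosome 2 in the stretch that copies organelle sequence were also higher. Of its 83 loci, 43 were tested, 14 were higher and none lower, against 11.7% and 8.98% of all tested genes. They took 0.691 and 0.743% of the counts in pglp1, against 0.0251 to 0.142% in the other mutants and 0.00482 to 0.0317% in WT. AT2G07732, which lies there (3468160 to 3468899, minus strand), had 4310 and 4370 CPM in pglp1, against 32.9 to 331 CPM in the other mutants and 0.0571 to 51.7 CPM in WT (5.6, adjusted p = 0.00802; 0.0682 without pglp1 replicate 2). Reads of these loci may come from the organelle genomes, and their assignment is uncertain. Without the stretch, 2252 genes were higher and 1725 lower.

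The same comparison at LC, fitted in its own 8 libraries, called more genes, with 4812 higher (23.5% of 20446 tested) and 5320 lower (26%), or 2432 lower without pglp1 LC replicate 1. Of the 2249 genes higher at HC and tested at LC, 1270 were higher there too (56.5%, and 28.1% of the 4519 genes higher at LC and tested at HC) and 221 were lower (9.83%). Of the 1726 that were lower at HC, 915 were lower at LC (53%, and 17.4% of the 5264 lower at LC and tested at HC) and 153 higher (8.86%). Sulfur genes were higher in 7 of 12 at LC with none lower, phosphate genes in 11 of 14 with none lower and mitochondrial dysfunction genes in 8 of 9 with 1 lower. Of the nitrogen genes, 1 was higher and 8 were lower at LC.

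NIA1 at LC had 6.37 and 32.8 CPM in pglp1, against 20.1 and 22.1 CPM in hpr1, 123 and 116 CPM in shm1 and 102 and 88.3 CPM in glyk1 (-1.66, adjusted p = 0.0345), so that pglp1 overlapped with hpr1 and both were below shm1 and glyk1. NIR1 at LC had 33.9 and 62.6 CPM in pglp1, against 105 and 98.4 CPM in hpr1, 122 and 119 CPM in shm1 and 161 and 122 CPM in glyk1 (-1.31, adjusted p = 0.00565), and both pglp1 libraries were below all others. The difference at HC minus that at LC, tested in 21 libraries, was 6.85, adjusted p = 2.72e-05 for NIA1 and 3.62, adjusted p = 0.000244 for NIR1. It also passed for GGCT2;1 (4.34, adjusted p = 0.00119), whose excess in pglp1 was larger at HC, and in the opposite direction for CCA1 (-2.5, adjusted p = 0.000279) and SQD2 (-3.52, adjusted p = 8.35e-06), whose excess was larger at LC. For AOX1A the log2 difference was 2.24 at HC and 2.43 at LC. UGT73C1 was high at LC in shm1 as well, with 391 and 467 CPM in pglp1, against 16.5 and 4.75 CPM in hpr1, 184 and 354 CPM in shm1 and 14.7 and 4.94 CPM in glyk1, whereas TPS2 had 41.5 and 93.8 CPM in pglp1 at LC, against 0 to 0.0873 CPM in the other mutants.

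**Figure D5:**
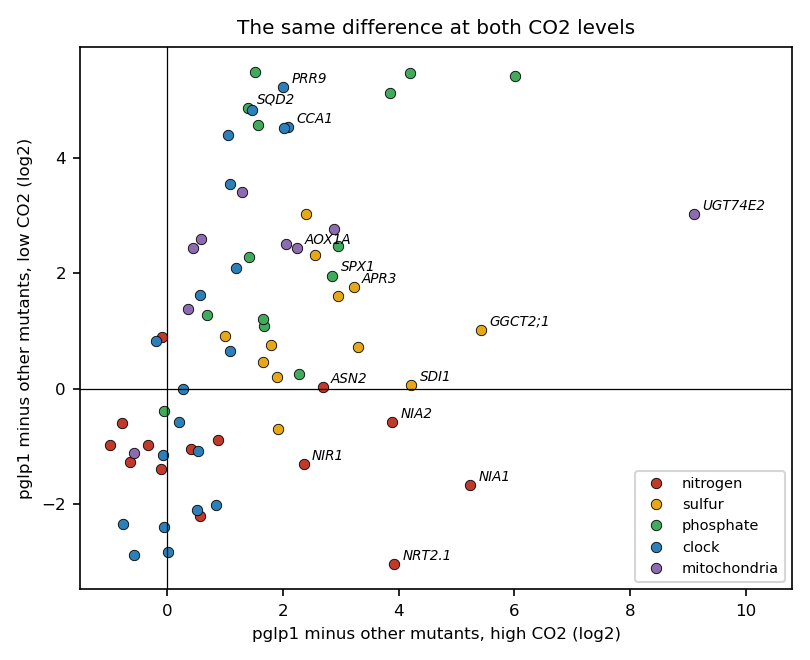
Log2 difference between pglp1 and the mean of hpr1, shm1 and glyk1 at HC (x axis) and at LC (y axis), one point for each tested gene of the nitrogen, sulfur, phosphate, clock and mitochondrial dysfunction lists. NIA1, NIA2, NIR1 and NRT2.1 lie right of 0 and below 0, while most sulfur, phosphate and mitochondrial points lie above 0 on both axes.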

How the data were processed

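RNA-seq of mature leaves was analysed from 22 libraries, of which 11 at HC entered the main fit. The deposited table gives, per the file headers, the count of reads at each locus in each library and the RPKM that the authors made from it. The authors used CASAVA 1.8, edgeR and TAIR9 or TAIR10, per the submitters' processing notes, and no source used here names the aligner. Per the labels' protocols, polyadenylated RNA was made into libraries with a kit that does not mark strand and read either singly or in pairs, without saying so by library, and antisense and overlapping genes cannot be told apart.

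Tests took the deposited counts, and the deposited RPKM values were left aside. Groups came from the sample titles. Of 25680 loci, 25479 matched the TAIR10.1 annotation of RefSeq and 10155 had a symbol there. edgeR 4.0.16 in R 4.3.3 was run with TMM factors, filterByExpr (19279 genes kept), 5 groups at HC and the quasi-likelihood F test (robust), with Benjamini-Hochberg adjusted p under 0.05. The 8 LC mutant libraries had a fit of their own. The difference between HC and LC was tested in 21 libraries, without WT LC replicate 3, whose rank correlation over loci with the other WT LC libraries was 0.735 and 0.756, against 0.956 between those. Replicates are called biological in the design text, with no more said of plants or pools, so p-values measure only how far the libraries of a group lie apart. Leave-one-out fits with 1 library in a group assume that it varies like the others. Calls over all tested genes fell in many of these fits, so a fall in a list is not by itself particular to that list.

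The members and the 33 gene lists (499 loci, 459 tested) were chosen with earlier results of these data known. Named genes were the targeted genes, the 15 with the largest called difference in each direction at 5 CPM or more and outside the range of the 6 other mutant libraries, up to 6 called members per list by p, and up to 15 in each direction that passed all 3 single comparisons. Other list members are named to complete a count, after their values were seen. Where a group had no count, a fold is a bound from 3 counts over the group. Such limits cover counting error only. Alternatives were RLE scaling, no filter, DESeq2 1.42.0, other sets of libraries, thinning to the shallowest library, a replicate block and leaving out each library, and, added after seeing the data, leaving out the organelle-copy loci. Scripts were tested on simulated data. Deviations of samples with the same replicate number correlated with both signs, which cannot settle whether the number pairs libraries.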

Additional observations from a re-analysis of the deposited data

Results flagged for a closer look

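The difference between pglp1 and the mean of hpr1, shm1 and glyk1 was itself compared between the CO2 levels. Of the 158 named genes, 50 passed the test of that change (edgeR, 21 libraries, adjusted p under 0.05). The share of all tested genes that passed is not given, so this count says nothing particular about the named genes. Most of them were chosen by their calls at HC, and the same HC libraries enter this test. The choice thus favours large differences at HC. Each value below is the log2 difference at HC minus that at LC, with the difference at each level in brackets. A negative value means that pglp1 stood lower against the other mutants at HC than at LC. The nitrogen genes that passed had a larger pglp1 excess at HC. NIA2 had 4.4 (HC 3.89, LC -0.57, adjusted p = 0.000129) and NIA1 had 6.85 (HC 5.24, LC -1.66, adjusted p = 2.72e-05). ASN2 had 2.6 (HC 2.69, LC 0.03, adjusted p = 0.000464) and NIR1 had 3.62 (HC 2.36, LC -1.31, adjusted p = 0.000244). NRT1.1 had 1.7 (HC 0.88, LC -0.89, adjusted p = 0.000712) and NRT2.1 had 6.88 (HC 3.92, LC -3.04, adjusted p = 0.0057). In the clock genes that passed, which PRR5 and CDF1 did not, the excess was larger at LC. CCA1 had -2.5 (HC 2.09, LC 4.53, adjusted p = 0.000279) and LHY had -2.57 (HC 2.01, LC 4.52, adjusted p = 0.000475). LNK2 had -3.41 (HC 1.05, LC 4.4, adjusted p = 2.88e-05) and PRR9 had -3.28 (HC 2.0, LC 5.22, adjusted p = 0.000199). Iron, phosphate and sulfur genes that passed differed in both directions. NAS3 had 4.06 (HC 5.17, LC 1.05, adjusted p = 0.00496) and SQD2 had -3.52 (HC 1.4, LC 4.86, adjusted p = 8.35e-06). SQD1 had -0.92 (HC 1.42, LC 2.28, adjusted p = 0.0376) and SHM7 had 1.28 (HC 2.95, LC 1.6, adjusted p = 0.0328). APR3 had 1.41 (HC 3.22, LC 1.76, adjusted p = 0.0268) and LSU1 had 2.49 (HC 3.29, LC 0.73, adjusted p = 0.00163). GGCT2;1 had 4.34 (HC 5.42, LC 1.02, adjusted p = 0.00119).

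Of the genes of photorespiration, the Calvin-Benson cycle, light harvesting and chlorophyll, those that passed had a larger excess at LC, and LHCB2.1, LHCB2.2, LHCB2.3, LHCB4.2, RBCS1B, RBCS2B, SBPASE and PORA did not pass. CAT2 had -1.23 (HC 1.02, LC 2.19, adjusted p = 0.0138) and FBA1 had -2.07 (HC 1.28, LC 3.28, adjusted p = 0.00162). GAPB had -1.11 (HC 1.02, LC 2.07, adjusted p = 0.0395) and FBA2 had -1.46 (HC 0.9, LC 2.3, adjusted p = 0.00591). LHCB7 had -1.28 (HC 0.7, LC 1.92, adjusted p = 0.000407) and CHLG had -2.51 (HC 0.84, LC 3.29, adjusted p = 0.00162). Starch, sugar and carbon starvation genes that passed differed in both directions. DPE2 had 2.55 (HC 1.01, LC -1.61, adjusted p = 0.00137) and BAM1 had -2.02 (HC -0.65, LC 1.31, adjusted p = 0.000659). DIN10 had 2.98 (HC -1.7, LC -4.74, adjusted p = 0.0169) and DIN3 had 0.81 (HC -0.65, LC -1.52, adjusted p = 0.0331). TPS11 had -2.34 (HC -1.71, LC 0.58, adjusted p = 0.00875). Stress, hormone and defence genes that passed differed in both directions. ABF3 had -2.07 (HC 1.16, LC 3.17, adjusted p = 0.00249) and CBF3 had 1.13 (HC 0.87, LC -0.32, adjusted p = 0.0181). GOLS3 had -1.88 (HC 1.84, LC 3.67, adjusted p = 0.0467) and FSD1 had -2.08 (HC 0.88, LC 2.89, adjusted p = 0.000495). AT2G21640 had -2.15 (HC 1.3, LC 3.4, adjusted p = 0.0232) and BZIP28 had -1.05 (HC -0.32, LC 0.67, adjusted p = 0.011). LOX3 had -2.31 (HC -1.08, LC 1.18, adjusted p = 0.00313) and DMR6 had -2.26 (HC -3.0, LC -0.77, adjusted p = 0.0323). UGT74E2 had 6.05 (HC 9.11, LC 3.03, adjusted p = 0.00295). Glucosinolate genes that passed differed in both directions. MYB51 had 1.46 (HC -1.84, LC -3.34, adjusted p = 0.0355) and MYB28 had -2.52 (HC 0.7, LC 3.15, adjusted p = 0.000452). CYP79B2 had 4.25 (HC -1.3, LC -5.58, adjusted p = 0.00021). The low-oxygen, growth, light and epidermis genes that passed stood lower at HC, and HRE2, PDC1, HRA1, AT4G10270, TCH4, EXPA1, PRE1 and ELIP1 did not pass. LBD41 had -2.66 (HC -1.52, LC 1.09, adjusted p = 0.00018) and PCO1 had -2.58 (HC -0.54, LC 1.99, adjusted p = 0.00103). HB2 had -1.25 (HC -1.16, LC 0.04, adjusted p = 0.0139) and HY5 had -1.29 (HC 1.55, LC 2.78, adjusted p = 0.0342). FDH had -0.66 (HC -0.58, LC 0.02, adjusted p = 0.0358). The remaining genes were chosen for their size or as targeted genes. AT5G36790 had -0.98 (HC -4.52, LC -3.59, adjusted p = 0.045) and UGT73C1 had 8.08 (adjusted p = 0.00232). AT4G12735 had 4.25 (HC 7.51, LC 3.23, adjusted p = 0.00826) and AT1G17200 had -1.72 (HC -3.84, LC -2.15, adjusted p = 0.0195). AT3G62960 had 4.63 (adjusted p = 0.0195). UGT73C1 had no count and AT3G62960 had 2 counts in the other mutants at HC, so their fitted values depend on the prior count.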

How the results depend on the processing

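The direction of the 153 called genes chosen by the rule for named genes held wherever they were tested in the 24 alternatives. These genes were chosen by calls in the same libraries, so the held direction is no separate support. In all 22 libraries 80 of the 153 kept their call. The counts of calls did not hold. The main comparison (2259 higher, 1732 lower) gave 3999 and 3113 in the 8 HC mutant libraries alone, 567 and 599 in all 22 libraries, 896 lower in 21 libraries, 1251 and 848 without shm1 and 1444 and 1098 without glyk1. Over the fits without 1 library it ran from 328 to 3234 and from 165 to 2745. The median of all genes was -0.16 (log2) in all 22 libraries, where 48.6% of calls were higher. Thinned to the shallowest library it gave 1956 and 1428, and with the other mutants as 1 group 1604 and 1510. In all 22 libraries pglp1 gave 180 genes against hpr1, 530 against shm1, 556 against glyk1 and 371 against WT. Single libraries left out gave 119 to 3404, 355 to 5312, 216 to 5139 and 210 to 3981 for these. DESeq2 gave 3015 for pglp1 against hpr1. Against WT it gave 56 for hpr1, 1173 for shm1 and 1445 for glyk1, and against the other mutants 1884 for hpr1, 1126 for shm1 and 934 for glyk1. Single libraries left out gave 1 to 3, 1 to 1278 and 1 to 1505 against WT, and 2 to 1864, 1 to 546 and 2 to 199 against the other mutants. All 22 libraries gave 3 for shm1 and 1 for glyk1 against WT, and 5 for hpr1 and 6 for shm1 against the other mutants. At LC the fits without 1 library gave 3221 to 5042 higher and 2432 to 5491 lower. The causes were not tested. CYCB1;1, a marker of dividing cells that did not pass, was -1.4 without pglp1 replicate 2 and 0.01 without replicate 1, against -0.43 with both. The replicate block gave 2647 and 2095 calls in the main comparison, 3 for hpr1, 43 for shm1 and 3 for glyk1 against WT, and 11 for hpr1 and 6 for shm1 against the other mutants. The deviations of samples with the same number correlated with both signs (r from -0.5 to 0.37). With so few libraries per group, these values cannot tell whether the number pairs libraries. The shallow pglp1 libraries limit what can be called in genes with few counts.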
